A study of Homo sapiens with 10 samples.

Results

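The transmembrane mucins are glycoproteins that stay anchored in the apical membrane of epithelial cells. The set described here is 10 genes of the deposited table of 58870 genes, matched by symbol: MUC1, MUC3A, MUC4, MUC12, MUC13, MUC15, MUC16, MUC17, MUC20 and MUC21. They were measured by mRNA sequencing in LS180, an established human colorectal cancer line grown in DMEM with serum and given no drug. CRISPR interference (CRISPRi), in which an inactive Cas9 and a guide RNA repress a gene's transcription, had been used to make stable lines with guides against RNASE1, a secreted ribonuclease. There were 5 lines: NTC1 and NTC2, taken here as the 2 non-targeting controls, and sg1, sg2 and sg3, which carry RNASE1 guides. Each line had a library A and a library B, 10 libraries in all. The labels do not say what the letters stand for, whether a line's libraries are separate cultures, or whether a line is a clone or a pool. The p-values therefore speak only of the spread between these libraries, or between these 5 lines where the line was the unit. Part of that spread may be technical.

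A transmembrane mucin carries a long, heavily O-glycosylated extracellular domain, a membrane span and a short cytoplasmic tail. In most of the family a SEA domain near the membrane is cleaved as the protein matures, and sheddases can release the outer part. In the intestine these proteins build the glycocalyx on the brush border, beneath the mucus gel made by secreted mucins such as MUC2. Several have tails that bind PDZ scaffold proteins or signalling partners.

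Library totals ranged from 39026564 to 45050950 counts. Values are CPM (counts scaled to the library total) after TMM, a between-library normalization, or CPM per kilobase of annotated exon where genes are compared with each other. A gene was called changed at an adjusted p under 0.05 (edgeR quasi-likelihood test, Benjamini-Hochberg over all tested genes). RNASE1 averaged 20.6 ± 0.605 CPM over the 2 NTC lines and 2.12 ± 1.26 CPM over the 3 guide lines (SD over lines), with no overlap between libraries (log2 fold change -3.26, SE 0.23, adjusted p = 8.37e-05). Among markers of colorectal epithelium, EPCAM was at 921, LGALS4 at 609 and CDX2 at 158 CPM on average. Of 6 leukocyte markers, PTPRC had no counts, CD14 was at 0.93 CPM and LYZ, which is not specific to leukocytes, at 34.1 CPM. Of 8 fibroblast markers, COL1A1 was at 0.162 CPM and the highest, COL3A1, at 1.85 CPM.

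The 200 bases before the RefSeq start of 3 members are shown because these 3 carry the results on level, letter and guide line. MUC13 is the most abundant member. MUC3A and MUC17 lie in the same cluster on chromosome 7, with MUC12 between them. Of this pair, MUC17 was called between letters and MUC3A was not. The test of the difference between them, given with the letter results, could not give a p under 0.0625 with 5 lines. Sequences are from RefSeq on GRCh38.p14, each written 5′ to 3′ on the gene's own strand, and capitals mark the matches to the motifs named after them. MUC13 lies at chr3:124934752-124934951 on the minus strand, MUC3A at chr7:100949334-100949533 and MUC17 at chr7:101019881-101020080, both on the plus strand. 
MUC13: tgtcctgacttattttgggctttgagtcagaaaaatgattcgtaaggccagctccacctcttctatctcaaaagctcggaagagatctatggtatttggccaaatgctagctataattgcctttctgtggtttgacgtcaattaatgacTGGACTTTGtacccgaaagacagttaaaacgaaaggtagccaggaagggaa
MUC3A: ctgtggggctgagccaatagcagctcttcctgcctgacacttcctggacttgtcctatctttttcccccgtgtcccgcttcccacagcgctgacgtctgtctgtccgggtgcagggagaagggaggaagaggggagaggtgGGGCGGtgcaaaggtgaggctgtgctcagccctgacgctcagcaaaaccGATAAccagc
MUC17: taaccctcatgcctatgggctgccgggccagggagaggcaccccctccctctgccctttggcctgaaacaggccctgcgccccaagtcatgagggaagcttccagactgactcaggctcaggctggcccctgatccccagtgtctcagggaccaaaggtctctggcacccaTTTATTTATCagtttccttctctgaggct

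For the search, 6 motifs were taken on both strands. They were chosen after these promoters and the levels had been seen, and the HNF4 letters with the MUC13 window in view, so a match is a description only. The HNF4 motif was TGGACTTTG, which the MUC13 window held 51 to 43 bases before the start. On either strand 0.25% of 27305 RefSeq windows of the same length held it. For GATA factors the letters searched were GATAA, found in 16.9% of windows. The MUC3A window held them 10 to 6 bases before the start, and the MUC17 window 24 to 20 bases before it on the reverse strand. For SP1 the letters were GGGCGG, found in 39.93% of windows and in the MUC3A window 59 to 54 bases before the start. For CDX factors the letters were TTTAT, found in 27.88% of windows. The MUC17 window held them at 2 overlapping positions, 29 to 25 and 25 to 21 bases before the start, the second of which overlaps its GATA match. The letters searched for HNF1, GTTAAT, occurred in 4.87% of windows, and in none of these 3. A TATA box, searched as TATAAA, occurred in 8.92% of windows and likewise in none of these 3. RefSeq windows were matched for 7 of the 10 members. The RefSeq start of MUC13, at 124934751, lies inside the longer GENCODE gene, which spans 124905442 to 124953819 on chromosome 3.

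LS180 expressed a narrow set of these mucins, led by MUC13. MUC13, an intestinal mucin with a short ectodomain, was at 56.7 ± 2.80 CPM per kb (SD over 10 libraries), and 94.8% of 15413 tested genes had a lower level per length. MUC3A, a mucin of the enterocyte brush border, followed at 3.99 ± 0.326 CPM per kb, close to the middle of those genes (49.5% were lower). The ranges of these genes did not overlap each other or any other member's. MUC20, which was described as a binding partner of the receptor MET, was at 1.13 ± 0.107 CPM per kb, from 0.997 to 1.30. MUC17, another brush-border mucin, was at 0.694 ± 0.147 CPM per kb, from 0.503 to 0.938. MUC20 and MUC17 did not overlap either. Their order rests on the division by length, as in CPM MUC17 was the higher, at 10.1 on average against 4.79 for MUC20. 

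MUC1 and MUC12 came next and could not be ordered. MUC1, which lines many epithelia and binds beta-catenin through its tail, was at 0.134 ± 0.0354 CPM per kb, from 0.0945 to 0.199. MUC12, an intestinal mucin, was at 0.120 ± 0.0202 CPM per kb, from 0.0960 to 0.158, within the range of MUC1. MUC4, a large mucin that can bind ERBB2, was near the limit of detection, with 48 counts in all libraries together and 1 to 11 in each, or 0.0053 CPM per kb. The same order of these 7 was found with the length of the longest annotated transcript in place of all annotated exons.

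The other 3 members were at or below the counting limit. MUC15 had 1 count, in sg2 B, and MUC16, which carries the CA125 antigen, had 1 count, in sg1 B. MUC21 had 0 counts in 424849685, which allows a level of up to 0.00706 CPM. That limit of 3 counts covers counting error only. Of the 10 members, 6 passed the filter on low counts (MUC1, MUC3A, MUC12, MUC13, MUC17 and MUC20), and MUC4 also passed when A and B were summed per line.

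**Figure D1:**
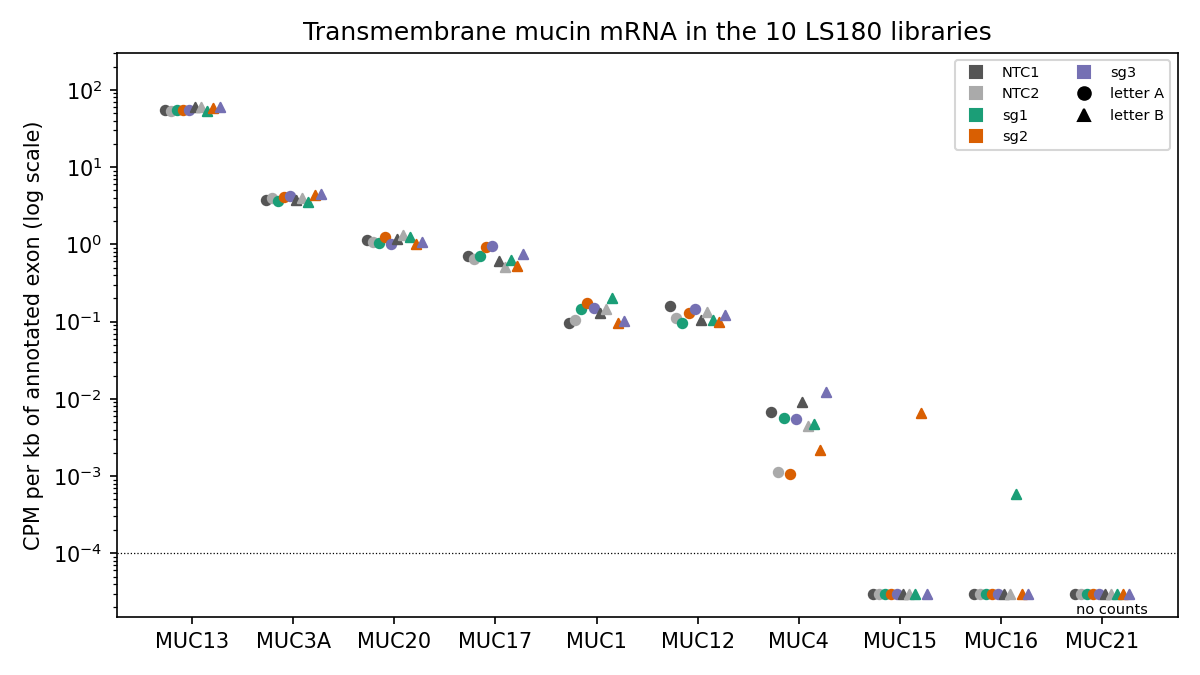
Level of each transmembrane mucin in CPM per kb of annotated exon (log axis) in each of the 10 libraries, coloured by line, with circles for letter A and triangles for letter B; points under the dotted line have no counts. MUC13 sits between 53.7 and 60.5 in every library, above all other members, while MUC15 and MUC16 each have a count in 1 library and MUC21 in none.

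Positions follow GENCODE 29 on GRCh38, and 3 members lie side by side on the plus strand of chromosome 7. MUC3A spans 100949555 to 100968346, MUC12 100969623 to 101018949, and MUC17 101020072 to 101058745. Within this cluster the mean levels were 3.99, 0.120 and 0.694 CPM per kb in gene order. On chromosome 3, MUC20 (195720882 to 195741123, plus strand) and MUC4 (195746765 to 195812277, minus strand) are neighbours that stood at 1.13 and 0.0053 CPM per kb. MUC1 lies on chromosome 1 (155185824 to 155192916).

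Some counts are uncertain because the labels' protocol describes no strand-marking step and RSEM shares reads among genes. The MUC20 gene overlaps MUC20-OT1, a noncoding gene on its own strand with 195 to 334 counts per library, beside 181 to 235 for MUC20, and MUC20P1 is its pseudogene. The antisense genes AC254629.1 and AC105446.1, inside MUC3A and MUC12, had 116 and 119 counts in all. MUC17 overlaps RN7SKP54, which had 60.42 counts in all, and MUC1 and MUC15 overlap genes with 0 counts. None of the overlapping genes passed the letter test where it was tested.

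Between the letters, MUC17 fell and MUC13 rose slightly, and the other 4 tested members gave no call. The letter test, run within lines, called 32.1% of 15462 genes (15.9% higher and 16.2% lower in B), so 2 of 6 members called is close to the background. MUC17 was lower in B by 0.38 on average (log2 fold change -0.38, SE 0.08, adjusted p = 0.00244), a fold of 0.767 with a 95% interval of 0.681 to 0.865. MUC13 was higher in B (log2 fold change 0.10, SE 0.03, adjusted p = 0.0125), a fold of 1.07 with a 95% interval of 1.03 to 1.12.

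The MUC17 difference was seen in every line; in bulk libraries, fewer cells with a transcript and less of it per cell cannot be told apart. In the A libraries MUC17 was at 10.4 CPM in NTC1, 9.53 in NTC2, 10.2 in sg1, 13.5 in sg2 and 13.7 in sg3. In the B libraries it was at 8.79 in NTC1, 7.33 in NTC2, 9.16 in sg1, 7.65 in sg2 and 10.9 in sg3. It was lower in B in 5 of 5 lines, by a log2 ratio of -0.16 in sg1 to -0.81 in sg2, although the libraries of the letters overlapped because sg3 B lay above 3 of the A libraries. The call held when any of the 10 libraries was left out, with log2 fold changes of -0.44 to -0.27, the smallest without sg2 A.

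MUC13 levels lay close together in the A libraries. They were 193 CPM in NTC1, 188 in NTC2, 190 in sg1, 193 in sg2 and 192 in sg3. In the B libraries they were 212 in NTC1, 209 in NTC2, 189 in sg1, 205 in sg2 and 211 in sg3. The B library of sg1 stayed within the A range, and the other 4 B libraries lay above all A libraries. The MUC13 call did not survive the removal of NTC1 A (adjusted p = 0.0547), of sg3 A (adjusted p = 0.0749) or of sg3 B (adjusted p = 0.0721), with log2 fold changes of 0.096, 0.094 and 0.093 in these fits.

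**Figure D2:**
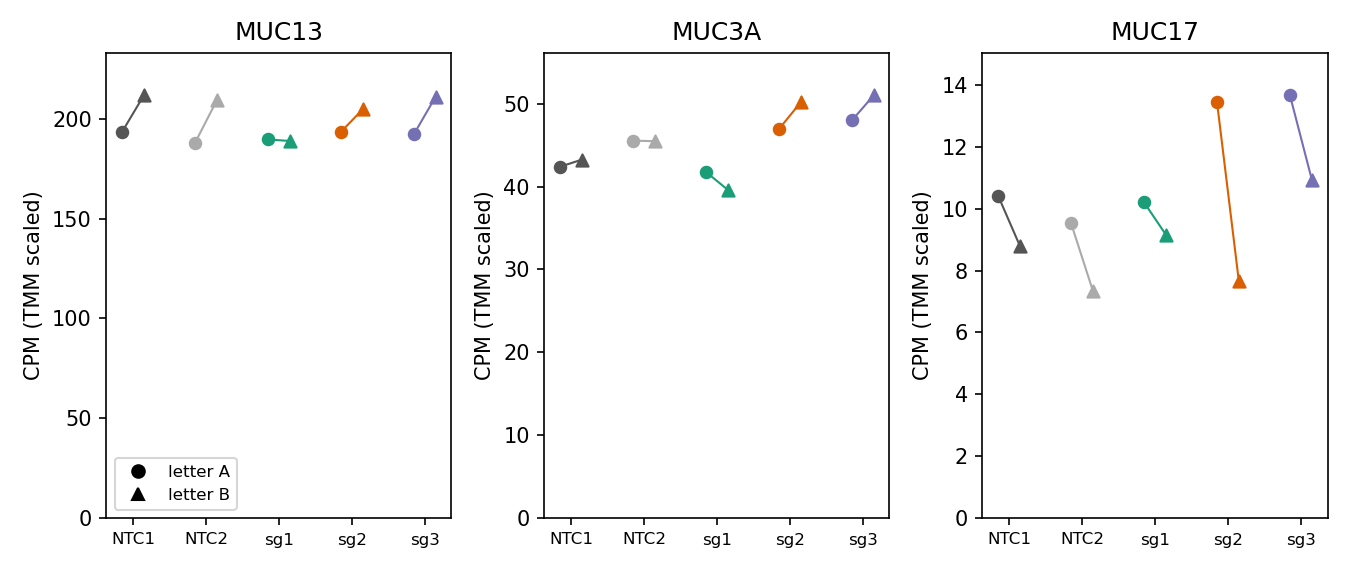
TMM-scaled CPM of MUC13, MUC3A and MUC17 in each line, with a circle for library A and a triangle for library B joined by a line; each axis starts at 0. MUC17 falls from A to B in all 5 lines and MUC13 rises in 4 of 5, while the MUC3A points differ more between sg1 and the other guide lines than between letters.

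MUC3A, the most abundant gene of the chromosome 7 cluster, gave no call between letters (log2 fold change 0.03, 95% interval -0.04 to 0.10). In each line the change of MUC17 was more negative than that of MUC3A, with a mean difference of -0.41 on the log2 scale (SD 0.31, n = 5 lines). An exact two-sided sign-flip test over lines gave p = 0.0625, the smallest that 5 lines allow, and 0.125 after adjustment over the 2 pairs compared. Against MUC12 the difference was -0.22, negative in 4 of 5 lines (exact sign-flip p = 0.25). These pairs were compared after the values had been seen.

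The low members varied between lines in both directions. MUC1, at 19 to 37 counts per library, was higher in B in NTC1, NTC2 and sg1 (log2 ratios of 0.44, 0.46 and 0.47) and lower in sg2 and sg3 (-0.89 and -0.55). Its fitted log2 fold change was -0.01 with a 95% interval of -0.57 to 0.56, so a change within that interval could not be told from none. MUC12 was higher in B in 2 of 5 lines (log2 fold change -0.17, 95% interval -0.48 to 0.15). MUC20 was higher in B in 4 of 5 lines (log2 fold change 0.08, 95% interval -0.13 to 0.28).

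**Figure D3:**
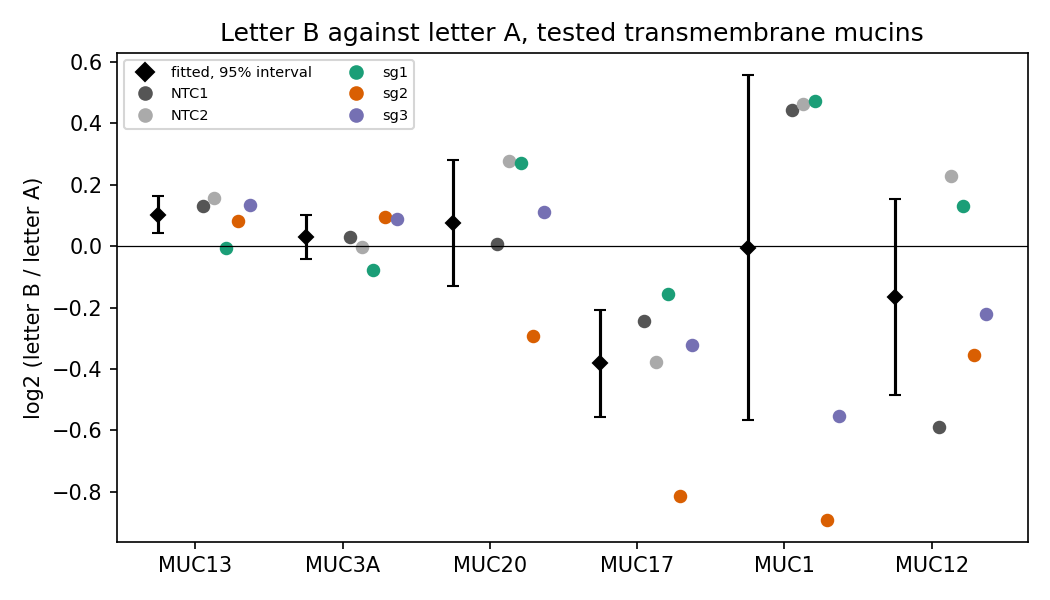
Log2 ratio of letter B to letter A for the 6 tested members, with black diamonds for the fitted value and its 95% interval and coloured points for each line. The intervals of MUC13 and MUC17 lie off 0; the MUC1 points split into 3 lines near 0.44 to 0.47 and 2 lines at -0.55 and -0.89.

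Other gene groups held calls between the letters beside the members. Of 4 tested secreted gel-forming mucins, 3 rose in B and none fell: MUC2, the main mucin of colonic mucus, by a log2 fold change of 0.65, MUC5B by 0.38 and MUC6 by 0.25. MUC5AC had a log2 fold change of 0.19 (adjusted p = 0.124) and was higher in B in 3 of 5 lines. Their median log2 fold change was 0.32, against 0.01 for the 6 members and near 0 for all genes. Of 4 other mucin-type membrane glycoproteins, PODXL (0.22) and PODXL2 (0.14) rose and CD164 (-0.17) fell. Of 11 receptors and ligands that cell-surface mucins bind, 5 rose and 2 fell, among them the EGF receptor EGFR (0.17), ERBB3 (0.12), the catenin JUP (0.13) and the galectin LGALS3 (-0.23). Of 8 sheddases and intramembrane proteases, 3 rose and 2 fell, with the sheddase ADAM10 at 0.19, MMP14 at 0.19, ADAM9 at 0.13 and the gamma-secretase subunit APH1A at -0.15.

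Of 15 apical scaffold genes, 4 rose and 1 fell, a share close to that of all genes; they include the actin bundler VIL1 (0.16), the PDZ scaffold SLC9A3R2 (0.11), the myosin MYO7B (0.17) and moesin, MSN (-0.37). Of 16 intestinal transcription factors, 8 rose and 1 fell, including the secretory lineage factor ATOH1 (0.44), ELF3 (0.32), CDX2 (0.17) and HNF4A (0.17). For all 6 of these lists the counts are read against the 32.1% of genes called.

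Among the cell type markers and a list of stress and immediate early genes, 2 sums did not overlap between the letters. Of 15462 single genes, 20.4% did not overlap. Summed markers of colorectal epithelium were at 7740 to 7929 CPM in A and 6293 to 7217 in B. The largest parts of this sum were KRT8, at 2909 CPM on average, and KRT18, at 1550 CPM. KRT8, KRT18 and KRT19 were lower in B, and KRT20, VIL1 and CDX2 higher. Of the 10 markers, 6 had a positive and 4 a negative log2 fold change, with a median of 0.0036. The 7 stress and immediate early genes summed to 399 to 431 CPM in A and 361 to 389 in B. Most of this sum was HSPA1B, at 329 CPM on average. JUN was called higher in B, and HSPA1A and HSPA1B lower. Of the 7 genes, 5 had a positive and 2 a negative log2 fold change, with a median of 0.11. The sums of the fibroblast, leukocyte and endothelium markers overlapped. Those of the intestinal transcription factors did not (1421 to 1445 CPM in A and 1447 to 1551 in B). Neither did those of the sheddases and intramembrane proteases (898 to 916 CPM in A and 919 to 960 in B). Fibroblast markers (3 of 8 tested, 1 lower in B) summed to 3.91 to 4.94 CPM in A and 3.76 to 5.28 in B. Leukocyte markers, nearly all of them LYZ at 34.1 CPM on average, summed to 34.4 to 38.2 CPM in A and 28.0 to 38.0 in B, with none called. Endothelium markers were at most 0.355 CPM in sum, and 0 of 6 were tested between letters. The part of these differences in the MUC13 and MUC17 results was not tested.

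Between the RNASE1 guide lines and the NTC lines, no transmembrane mucin was called. The comparison asked whether repression of RNASE1 went with other levels of cell-surface mucin mRNA. Of 17335 genes tested over 3 guide and 2 NTC lines, 0.0231% were called, and 0 of 7 members were (1 at an unadjusted p under 0.05, and 0 with DESeq2, which gave an adjusted p for only 1 member). MUC13 averaged 201 ± 3.55 CPM over the NTC lines and 197 ± 5.92 CPM over the guide lines (SD over 2 and 3 lines). Its fold was 0.981 with a 95% interval of 0.938 to 1.03, the narrowest of the members. MUC3A averaged 44.1 ± 1.78 and 46.3 ± 4.69 CPM in the same lines, a fold of 1.05 with an interval of 0.954 to 1.16.

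MUC17 was the member with the lowest p. It averaged 8.99 ± 0.826 CPM over the NTC lines and 10.9 ± 1.30 CPM over the guide lines (SD over 2 and 3 lines). The fitted log2 fold change came to 0.28 (SE 0.09, adjusted p = 0.452), with a fold interval of 1.06 to 1.39 that is not adjusted for the number of genes. The line means ran from NTC2 at 8.41 CPM through NTC1 at 9.57, sg1 at 9.73 and sg2 at 10.6 to sg3 at 12.3, but single libraries overlapped, as sg2 B at 7.65 CPM lay below 3 of the 4 NTC libraries. Without the filter on low counts the MUC17 adjusted p was 0.0175, and that fit called 151 genes higher and 87 lower in place of 3 and 1.

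No other member was called. The fold of MUC20 between guide and NTC lines was 0.939 (95% interval 0.824 to 1.07) and that of MUC12 0.923 (0.738 to 1.15). MUC1 had a fold of 1.21 (0.826 to 1.76). In the A libraries all 3 guide lines had more MUC1 (0.677 to 0.827 CPM) than either NTC line (0.450 and 0.499 CPM), and in the B libraries the lines overlapped. Such separation within A, in either direction, was found for 26.6% of 15462 genes. MUC4 had a fold of 0.964 with an interval of 0.354 to 2.63, so these data hold little information on it.

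**Figure D4:**
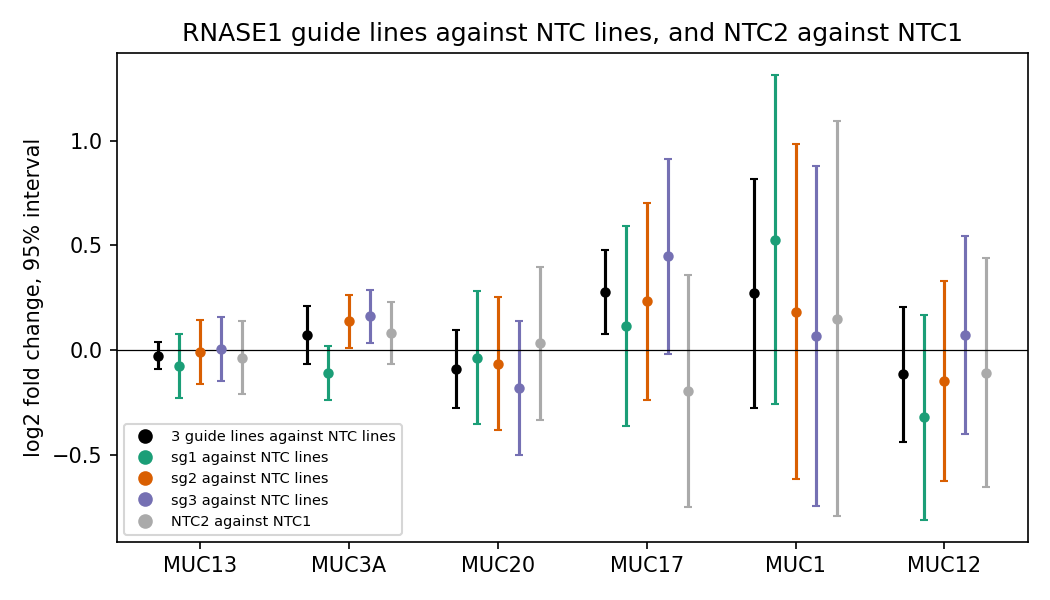
Log2 fold change with its 95% interval for the 6 members tested in every comparison, for the 3 guide lines together (black), for each guide line (coloured) against the NTC lines, and for NTC2 against NTC1 (grey). Every MUC13 and MUC20 interval crosses 0; the MUC3A values lie at -0.11 in sg1, 0.14 in sg2 and 0.16 in sg3, and no value passed the adjusted threshold.

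Each guide line was also set against the mean of the NTC lines, whose libraries these comparisons share. The main fit left out the letter, which was added as a block in an alternative. In sg1, sg2 and sg3 alike, 0.00609% of 16411 genes were called and 0 of 6 members were. Before adjustment, edgeR gave p under 0.05 for 0, 1 and 1 members in these lines. Among all genes, 377 in sg1, 298 in sg2 and 354 in sg3 met that unadjusted cut-off. DESeq2 called 0 members in each comparison. Between the control lines, NTC2 against NTC1 gave 0% of genes and 0 of 6 members (282 genes and 0 members at an unadjusted p under 0.05, and 2 genes with DESeq2). MUC17 had log2 fold changes of 0.11 in sg1, 0.23 in sg2 and 0.45 in sg3, beside -0.20 between NTC2 and NTC1. The sg3 value had a 95% interval of -0.02 to 0.91, and without the filter on low counts its adjusted p was 0.0481.

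The MUC3A values of the guide lines lay on different sides of the NTC lines, a difference that the test did not call. In the A libraries MUC3A was at 42.4 CPM in NTC1, 45.5 in NTC2, 41.8 in sg1, 46.9 in sg2 and 48.0 in sg3. In the B libraries it was at 43.3 in NTC1, 45.5 in NTC2, 39.6 in sg1, 50.2 in sg2 and 51.0 in sg3. The sg1 libraries both lay below all NTC libraries, and the sg2 and sg3 libraries all lay above them. Of 15462 genes, 0.925% had all 3 guide lines outside the NTC range in this way, and 0.0905% had them not all on 1 side. The pattern counted was taken from the MUC3A values themselves, so these shares are descriptions only and do not test the difference.

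The tests did not call MUC3A. Its log2 fold change was -0.11 in sg1 (95% interval -0.24 to 0.02), 0.14 in sg2 (0.01 to 0.26) and 0.16 in sg3 (0.03 to 0.29). An F test of equal MUC3A means in sg1, sg2 and sg3 gave an unadjusted p of 0.00424 and an adjusted p of 1 (edgeR). That test called 0% of 16411 genes; 226 had an unadjusted p under 0.05, and DESeq2 called 7. Adding the letter to the fit as a block gave an adjusted p of 0.287, and the unadjusted p was 0.0171 without sg1 A and 0.0581 without sg1 B. With the letter as a block, the unadjusted p of the F test for MUC3A was 0.000298. For the other 5 members the lowest unadjusted p of the F test without the block was 0.322, for MUC12.

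Whether a member's letter difference depended on the arm was tested as an interaction. It was called for 0% of 16411 genes and for 0 of 6 members (941 genes and 0 members at an unadjusted p under 0.05; 3 genes and 0 members with DESeq2), and the lowest adjusted p of a member was 0.901. MUC1 had the largest value, a log2 difference of -0.75 between guide and NTC lines, but its 95% interval ran from -1.92 to 0.42, and the value was -1.18 without sg1 A and -0.46 without sg2 B. For MUC17 the value was -0.12 (95% interval -0.50 to 0.25).

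The same 6 lists had no call between guide and NTC lines either. All 4 tested secreted gel-forming mucins had a negative log2 fold change there, with a median of -0.21, and none passed the test; MUC2 was at -0.30 (adjusted p = 0.184) and MUC5AC at -0.27 (adjusted p = 0.254). The median of the 7 tested transmembrane members was -0.03, and that of all genes was near 0. At an unadjusted p under 0.05 there were 1384 genes, with 4 of the 4 secreted mucins among them.

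Genes whose levels ran most like those of the leading members were found among 9524 genes at 10 CPM or more, by Pearson correlation of log2 CPM over the 10 libraries. For MUC13 these were the ubiquitin ligase NEDD4 (r = 0.97), the zinc finger gene ZNF714 (r = 0.97) and the sorting nexin SNX30 (r = 0.96). For MUC3A they were GUCY2C, the intestinal receptor of guanylin (r = 0.90), the immediate early gene EGR1 (r = 0.90) and the peptidase PREP (r = 0.90). The libraries share lines and letters and are not independent, and these genes were picked as the highest of many, so the values are descriptions only.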

How the data were processed

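The deposited values are expected counts, which RSEM estimated for each gene, as the table's name says; 7.12% of them were fractional. The tools named in the submitters' processing notes included TopHat2 2.0.8, CASAVA 1.8.2 and FastQC 0.11.2, and hg38 was the build; what each tool did is not given in the sources used here. Per the labels' protocols, RNA was column-extracted, captured with oligo(dT) and copied with random primers, and no strand-marking step is described.

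Expected counts were rounded. Tests were edgeR 4.0.16 quasi-likelihood fits in R 4.3.3 (TMM, filterByExpr, two-sided). Letters were compared with line as a covariate over 10 libraries, and guide and NTC lines with A and B summed per line. Single lines were compared from a fit of 5 line means without the letter, so letter differences counted as spread between libraries. Benjamini-Hochberg values cover all tested genes. Standard errors were derived from each fold change with its F statistic; 95% intervals use the t quantile. DESeq2 1.42.0 was an alternative; others were its size factors, no filter, each library left out, each letter alone, and the letter as a block. The letter fit and the guide against NTC fit were also run on simulated counts. These held planted changes but no other line or letter differences, so they check the code only. Gene positions and exon lengths are from GENCODE 29 on GRCh38, to which 58552 identifiers matched.

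Members and gene lists were chosen with earlier results of these data known. The rule named all members, overlapping genes, up to 4 called genes per list by smallest p, and the 3 genes most like each of the 2 leading members. The letters pair the libraries: deviations from line means correlated between all 10 same-letter pairs (r from 0.482 to 0.779 over 9527 genes at 10 CPM or more; 8 of 10 pairs over 0.1 across all 15462 tested genes). The squared A to B difference within a line was 15.2 to 33.1 times what sampling gives. The A and B libraries of a line thus did not look like repeat deposits of each other. Libraries of different lines were not compared in this way. All values are shares of a library, and a uniform change in RNA content would not show.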

Additional observations from a re-analysis of the deposited data

How the results depend on the processing

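Of 599 log2 fold changes of the members refitted under an alternative, 542 kept their direction and side of the threshold, 52 changed sign (50 of them with 1 library left out), 3 lost a call and 2 gained one. No member changed direction where it was called. With no filter on low counts, 1 member (MUC17) was called higher in guide lines (adjusted p = 0.0175) and 1 in sg3 (adjusted p = 0.0481); the cause was not tested. The letter count of members higher in B ranged from 0 to 1 with 1 library left out. The MUC17 value between arms was 0.16 without sg2 A and 0.38 without sg2 B. MUC13 between arms was 0.0063 in the A libraries alone, and MUC1 was -0.066 in the B libraries alone.

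The ranges of log2 fold changes with 1 library left out, for values that changed sign, were as follows. For MUC1 they were -0.14 to 0.22 between letters, -0.33 to 0.55 in sg2, -0.23 to 0.32 in sg3 and -0.10 to 0.39 for NTC2 against NTC1. For MUC12 they were -0.24 to 0.025 between arms, -0.34 to 0.015 in sg2, -0.062 to 0.23 in sg3, -0.38 to 0.21 between NTC lines and -0.39 to 0.44 for the interaction. For MUC13 they were -0.068 to 0.011 between arms, -0.055 to 0.029 in sg2, -0.064 to 0.069 in sg3 and -0.12 to 0.041 between NTC lines. For MUC17 they were -0.23 to 0.58 in sg2 and -0.26 to 0.068 for the interaction. For MUC20 they were -0.18 to 0.096 in sg1, -0.22 to 0.069 in sg2, -0.12 to 0.17 between NTC lines and -0.26 to 0.050 for the interaction. MUC3A ran from -0.0040 to 0.077 for the interaction, and MUC4 from -0.34 to 0.29 between arms. None of these values passed the threshold.

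Counts over all genes moved more. With no filter, calls (higher and lower) were 151 and 87 between arms, 41 and 28 in sg1, 53 and 42 in sg2, 50 and 36 in sg3, 25 and 32 between NTC lines, 59 and 42 for the interaction, and 141 among guide lines. DESeq2 gave 57 and 14 between arms, 3 and 1 in sg1 and sg3, 2 and 2 in sg2, 1 and 1 between NTC lines, 1 and 2 for the interaction, and 7 among guide lines. The A libraries alone gave 7 lower between arms. With 1 library left out, calls between arms ranged from 0 to 9 higher and from 1 to 7 lower, those for the interaction from 1 to 6 higher and from 0 to 4 lower, and those among guide lines from 0 to 2.

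With the letter as a replicate block the pairing changed no member's call; counts over all genes were 1 and 1 between arms, 2 and 2 in sg1, 1 and 1 in sg2, 5 and 1 in sg3, 1 and 1 between NTC lines and 8 among guide lines. Blocked log2 fold changes were 0.26 for MUC17 and 0.07 for MUC3A between arms. Without the line block, the letter fit gave -0.38 for MUC17 (adjusted p = 0.0150) and 0.10 for MUC13. Critical values of Dixon's outlier test were set for groups of 4, 5 and 6 libraries. By this test no member value stood apart from the rest in the 28 groups tested. Of the tested members, MUC1, at 19 to 37 counts per library, and MUC4 had the fewest counts and the widest intervals between arms.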
